A study of Mus musculus with 4 samples.

Results

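The genes described here are the 9 members of the oxygen-sensing loop of the hypoxia-inducible factors (HIFs) in mouse tissue 7 days after burn/tenotomy (BT), an injury that leads to heterotopic ossification (HO). They were chosen by symbol and not by any measured value: the α subunits Hif1a, Epas1 and Hif3a, the shared partner Arnt, the prolyl hydroxylases Egln1, Egln2 and Egln3, the asparaginyl hydroxylase Hif1an and the ubiquitin ligase subunit Vhl. All 9 were found among the 32285 gene rows of both single-cell RNA-seq (scRNA-seq) libraries and among the 19465 gene rows of both Visium spatial sections. Each scRNA-seq library came from unsorted cells of the tenotomy site of mice labelled Hoxa11CreER;ROSA-LSL-TdTomato;Hif1a fl/fl, which had received 75 mg/kg tamoxifen on each of 5 days and a washout of 9 days before the injury. One library pooled replicates 1 and 2, and the other held replicate 3. Sections A1 and B1 were cut from tenotomy sites of wild-type C57BL/6 mice aged 10 weeks, also 7 days after BT. The labels do not give the age of the mice in the libraries, and nothing states that the sections came from separate mice, so p-values measure the spread between these samples only. Cre-negative and uninjured mice were not analysed here, so every comparison below is between cell types or tissues of injured mice.

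Under oxygen, the prolyl hydroxylases PHD2, PHD1 and PHD3 (encoded by Egln1, Egln2 and Egln3) hydroxylate HIF-α proteins, and the VHL protein then marks them for degradation. Factor inhibiting HIF (Hif1an) hydroxylates an asparagine of HIF-α and blocks its coactivators. When oxygen is low, HIF-α protein accumulates, pairs with ARNT and induces genes of glycolysis, angiogenesis and collagen modification, and Egln1 and Egln3 are themselves HIF targets, which closes the loop. Most of this regulation acts on protein, so a transcript level does not give the activity of a HIF. HIF-2α, the product of Epas1, is known from endothelial cells, pericytes and other restricted cell types, whereas Hif1a is transcribed broadly.

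HIF binds a short core, ACGTG or GCGTG, on either strand. The windows around start sites of Hif1a and of the hydroxylase genes Egln1 and Egln3 are shown because Hif1a is the floxed gene and Egln1 and Egln3 are the HIF targets among the members. Epas1, which had the largest differences between classes, has no entry in the table used. RefSeq windows of GRCm38.p6 (250 bases before to 50 bases after a start site, read along the strand of the gene) were found for 8 of the members. The Hif1a window, chr12:73907617-73907916 on the plus strand, lies inside the annotated gene (chromosome 12, 73901324 to 73947554), so it belongs to a start downstream of the first base of the gene. The Egln1 window is chr8:124949205-124949504 and the Egln3 window is chr12:54203825-54204124, both on the minus strand. Capitals mark every match to the core, printed 5′ to 3′.
Hif1a: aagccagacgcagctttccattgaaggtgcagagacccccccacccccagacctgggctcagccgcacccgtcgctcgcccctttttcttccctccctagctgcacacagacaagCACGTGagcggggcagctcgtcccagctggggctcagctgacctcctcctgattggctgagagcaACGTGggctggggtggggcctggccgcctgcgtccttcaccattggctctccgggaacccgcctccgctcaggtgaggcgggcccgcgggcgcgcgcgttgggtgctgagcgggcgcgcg
Egln1: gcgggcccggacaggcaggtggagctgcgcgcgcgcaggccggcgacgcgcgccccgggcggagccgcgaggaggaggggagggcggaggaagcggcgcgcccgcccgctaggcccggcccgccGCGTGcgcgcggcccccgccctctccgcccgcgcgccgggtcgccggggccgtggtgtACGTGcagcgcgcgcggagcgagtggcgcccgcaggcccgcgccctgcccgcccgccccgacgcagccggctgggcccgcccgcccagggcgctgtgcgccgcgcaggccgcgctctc
Egln3: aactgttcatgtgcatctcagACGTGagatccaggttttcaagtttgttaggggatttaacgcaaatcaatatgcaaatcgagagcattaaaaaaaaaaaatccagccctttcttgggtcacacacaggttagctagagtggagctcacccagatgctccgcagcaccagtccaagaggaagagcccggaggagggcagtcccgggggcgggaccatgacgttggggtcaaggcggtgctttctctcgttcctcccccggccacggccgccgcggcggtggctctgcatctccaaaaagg
Hif1a held 3 matches, of which 2 overlap as a palindrome read on both strands, Egln1 held 2 and Egln3 held 1. Of the windows not shown, Arnt held 1 match, Hif3a 2 and the pair of Egln2 windows 6 and 1, while these letters did not occur in the windows of Vhl and Hif1an. Among all 32851 RefSeq windows of this length, 43.8% held at least 1 match, 20.6% at least 2 and 8.93% at least 3.

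The libraries held 31536402 unique molecular identifiers (UMIs) in 2303 barcodes (pool of replicates 1 and 2) and 23379476 UMIs in 1266 barcodes (replicate 3), of which 1276 and 795 cells were kept, with medians of 13144 and 17213 UMIs. The libraries shared 1 barcode, and no kept cell did. Cells were gated by their own markers into 7 classes: cells of the gate for mesenchymal progenitor cells (called MPCs after the gate, 216 and 171 cells), fibroblast-like (65 and 63), macrophage-like (211 and 116), T- or NK-like (141 and 42), endothelial-like (92 and 53), pericyte- or smooth-muscle-like, hereafter mural (101 and 54), and keratinocyte-like cells (75 and 57). Among the 10 leading genes of each class none was a marker of another of these classes, but cartilage was not among the cell gates. In MPCs of the pool, 4 of the 10 leading genes were markers of cartilage (Col2a1, Ucma, Acan and Col9a3) and 3 were markers of the gate (Tnmd, Kera and Fmod), whereas in replicate 3 the counts were 0 and 5. The 10 cartilage markers summed to 1886 and 758 CPM in MPCs and to at most 59.9 CPM in the other classes (1 of the 10 was at 0 in MPCs), so the name MPC stands for the gate and not for one cell type. At least 3 of these markers were detected in 113 of 216 and 80 of 171 MPCs. Another 277 and 175 cells met no gate. Smaller gated classes, such as dendritic-like and Schwann-like cells, could not be tested, and any order of classes below is among these 7. A level below is in CPM, the UMIs of a gene scaled to the total UMIs of its class, given for the pool and then for replicate 3, and a difference is the log2 difference between a class and the mean of the other 6 classes from edgeR's quasi-likelihood test with the Benjamini-Hochberg adjustment over 12726 genes. The standard error (SE) of a difference and all p-values rest on 2 libraries, that is on 3 replicates in all of which 2 were pooled. Levels are read along one gene across classes, never between genes.

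In MPCs, 4 of the 8 tested members were called, beside 46.0% of all genes. Against the same backgrounds, 2 were called in fibroblasts (36.7% of all genes), 5 in macrophages (43.9%), 4 in T or NK cells (42.7%), 1 in endothelial cells (29.5%), 1 in mural cells (32.6%) and 6 in keratinocytes (45.5%). These are 23 of 56 tests over 8 genes, too few genes for a share to be read closely, and the pattern of each gene is described instead. Hif3a, a HIF-α paralogue with inhibitory splice forms, had 6 UMIs over the 14 class sums and could not be tested. Egln3 passed the filter on low counts through 5 of the 14 sums and Epas1 through 8, those where each was high. Their differences are partly set by that filter, so their p-values in the cell comparisons below do not count as support.

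**Figure D1:**
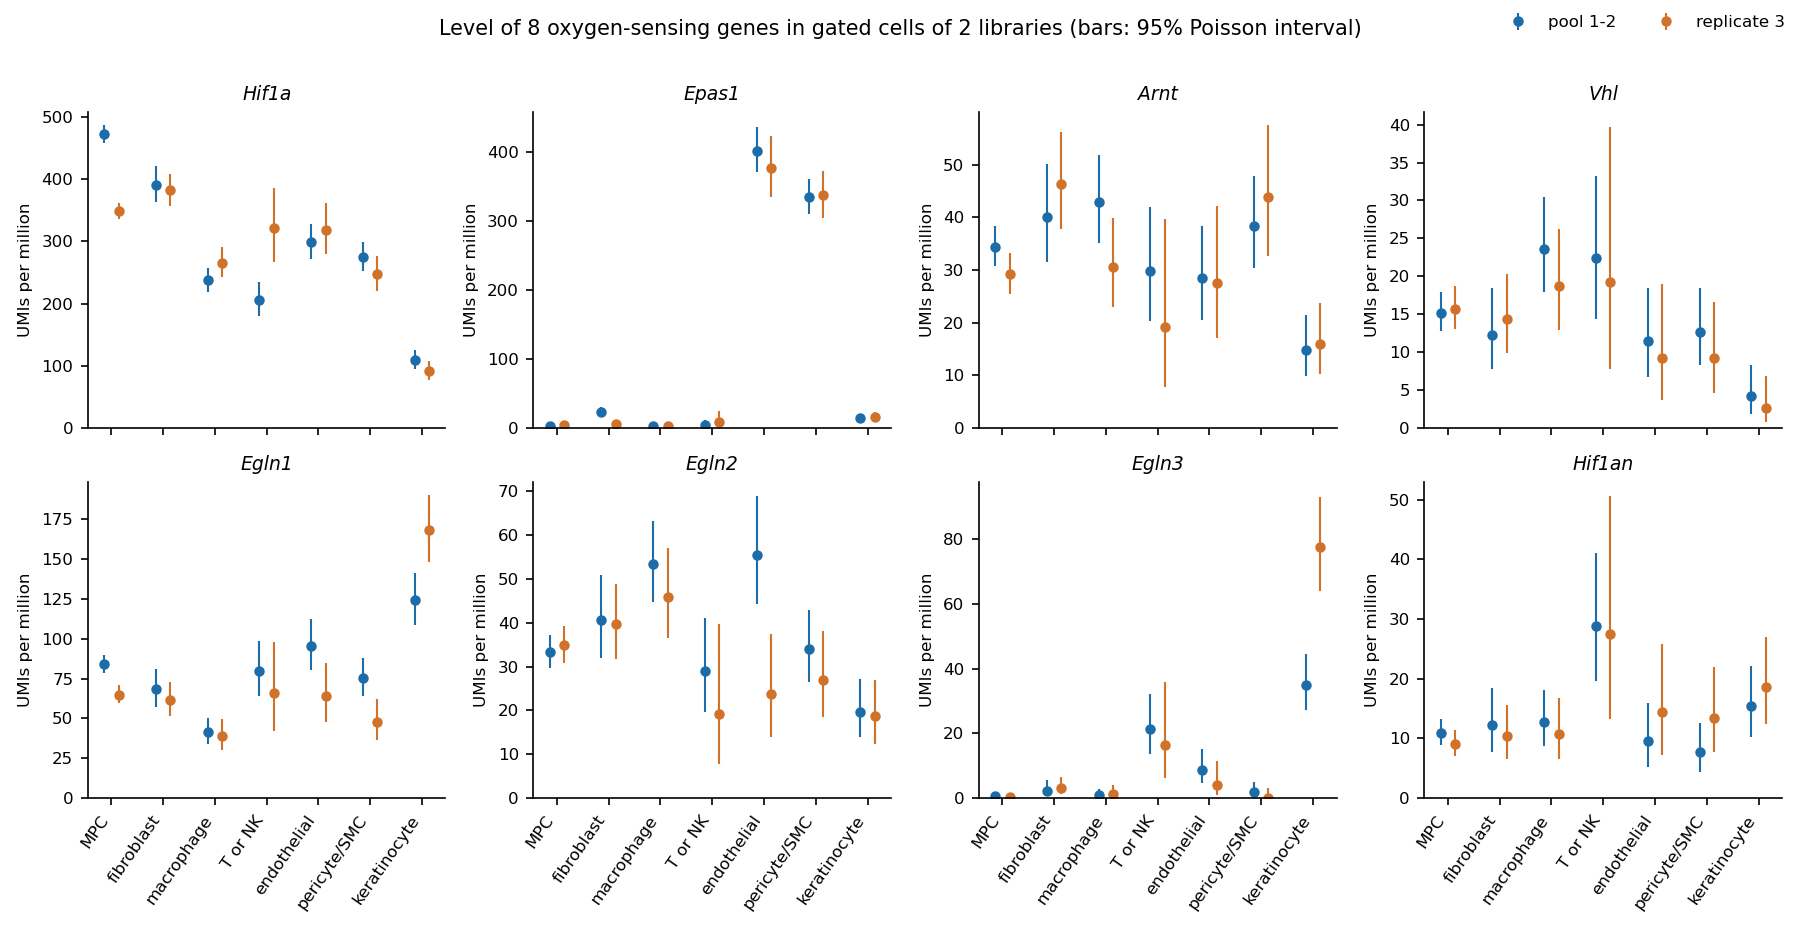
Level of 8 members (CPM, vertical axes) in 7 gated cell classes (horizontal axes) of the pool of replicates 1 and 2 (blue) and replicate 3 (orange), with exact 95% Poisson intervals that cover counting error only. Epas1 was high in endothelial and mural (pericyte/SMC) cells, Egln3 and Egln1 were highest in keratinocytes, and Hif1a was lowest there.

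Hif1a, the floxed gene of these mice and the oxygen-regulated subunit of HIF-1, was detected in every class of both libraries. MPCs held 473 and 349 CPM (4427 and 2737 UMIs), the highest level of the pool and the second of replicate 3. Fibroblasts held 391 and 382 CPM, endothelial cells 299 and 319, T or NK cells 206 and 322, mural cells 275 and 247, macrophages 238 and 266 and keratinocytes 110 and 91.4. The ranges of MPCs and fibroblasts overlapped, and those of endothelial, T or NK, mural and macrophage cells overlapped each with the next. Keratinocytes lay below the other tested classes, while dendritic-like and Schwann-like cells, too few to be tested, lay lower still. MPCs were above the mean of the other classes by 0.86 (SE 0.13, adjusted p = 7.6e-05) and fibroblasts by 0.75 (SE 0.14, adjusted p = 0.00049), and in keratinocytes Hif1a was lower, with a difference of -1.44 (SE 0.17, adjusted p = 4.8e-06). Between MPCs and fibroblasts the difference was 0.10 (SE 0.19), which did not pass the test. When each cell was thinned to 5000 UMIs, 83.0% and 74.8% of MPCs and 36.8% and 35.1% of keratinocytes had a Hif1a UMI (93.1% and 93.6%, and 61.3% and 57.9%, before thinning). Keratinocytes carry the floxed allele but are not mesenchymal, and Hoxa11 drives Cre in mesenchyme of the zeugopod, the lower limb segment. Recombination could not be read in any class, and the cause of the lower level in keratinocytes was not tested.

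Those MPCs with 3 or more cartilage markers, a group formed after the leading genes were seen, held 529 and 376 CPM of Hif1a, and the other MPCs (103 and 91 cells) held 386 and 319 CPM. The first group was higher in each library. The Poisson intervals did not overlap (510 to 548 against 366 to 406, and 357 to 395 against 302 to 338), but they leave out the spread between cells. It also had more UMIs per cell (medians 51614 and 48314, against 40882 and 45789), and no test was made of it. MPCs were also fitted without this group. Since its depth differs as well, the part of cartilage genes in the MPC level cannot be told apart. In that fit the Hif1a difference of MPCs from the other classes was 0.55 (adjusted p = 0.0033), and that from fibroblasts was -0.20, which did not pass the test.

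The Hif1a level does not check the deletion. The libraries count tags near the 3′ end of a transcript, the deleted part is not given in the labels, and TdTomato and Cre are not among the gene rows, so recombined cells could not be told from others. MPCs with a Hoxa11 UMI, a group formed after the class values were seen, held 503 and 348 CPM of Hif1a and MPCs without one held 424 and 351 CPM. The level was higher with a Hoxa11 UMI in the pool, and the levels were close in replicate 3. No test was made of this pair, and cells with a Hoxa11 UMI were also those with more UMIs (medians 51872 and 49676, against 40749 and 38961).

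Epas1 separated the vascular classes from all others. Endothelial cells held 402 and 377 CPM (594 and 287 UMIs) and mural cells 335 and 337 CPM (690 and 400 UMIs). The other classes lay far lower, with 22.5 and 5.41 CPM in fibroblasts, 13.8 and 15.3 in keratinocytes, 4.66 and 8.25 in T or NK cells, 2.67 and 4.84 in MPCs and 2.80 and 3.40 in macrophages. The difference was 4.73 in endothelial cells (SE 0.20, adjusted p = 1.2e-10) and 4.52 in mural cells (SE 0.20, adjusted p = 1.6e-10). Epas1 was lower in MPCs (-2.77, SE 0.36, adjusted p = 1.2e-05), in macrophages (-3.12, SE 0.47, adjusted p = 5.9e-05) and in T or NK cells (-2.26, SE 0.58, adjusted p = 0.0055, with -2.50 in the pool alone and -1.60 in replicate 3 alone). Between endothelial and mural cells the difference was 0.18 (SE 0.25), with no member called, although 2 passed an unadjusted p of 0.05 and none was called by DESeq2, where 29.2% of all genes were called. In this pair the 10 mural markers summed to 525 and 379 CPM in endothelial cells and the 10 endothelial markers to 31.1 and 43.0 CPM in mural cells, against 10149 and 9911, and 5328 and 5980, in their own classes. Mural cells on the smooth muscle side (more Myh11 and Cnn1 than Rgs5, Kcnj8 and Abcc9 UMIs) held 311 and 372 CPM of Epas1 and those on the pericyte side 342 and 327, an order that turned between libraries. Hif1a, in contrast, was at 419 and 426 CPM on the smooth muscle side and at 237 and 196 on the pericyte side (19 and 10 cells against 82 and 44). These sides were formed after the class values were seen and are given as a description.

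MPCs and fibroblasts differed in 1 member, Epas1, beside 16.9% of all genes. The difference was -1.82 (SE 0.43, adjusted p = 0.0085), but it came mainly from the pool, where it was -2.93, against -0.18 in replicate 3. The 42 Epas1 UMIs in fibroblasts of the pool came from 19 cells. The 10 mural markers summed to 211 and 200 CPM in fibroblasts and the 10 endothelial markers to 21.4 and 26.6 CPM, and their part in the Epas1 level was not tested.

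The α subunits can also be read within one cell. Of the UMIs of Hif1a and Epas1 together, Hif1a made up 99.4% and 98.6% in MPCs. It made up 42.6% (Wilson 95% interval 39.6 to 45.6) and 45.8% (41.7 to 50.1) in endothelial cells and 45.1% (42.4 to 47.9) and 42.3% (38.7 to 46.0) in mural cells. Fibroblasts stood at 94.6% and 98.6%, macrophages at 98.8% and 98.7%, T or NK cells at 97.8% and 97.5% and keratinocytes at 88.8% and 85.6%. Thinned to 5000 UMIs, 49 of 80 and 17 of 35 endothelial cells had a UMI of each subunit (61.2% and 48.6%), and 47 of 96 and 29 of 51 mural cells did (49.0% and 56.9%). In MPCs this was so for 2 of 194 and 4 of 159 cells. A UMI of each subunit was thus often seen in the same vascular cell, while 21.2% and 28.6% of endothelial cells had one of Epas1 alone. At 2000 UMIs the cells with each fell to 14 of 85 and 6 of 43 endothelial cells and to 16 of 99 and 10 of 53 mural cells, and a cell without a UMI at such depths cannot be read as lacking the transcript. Hif1a UMIs were found in every class, so no class gives its background. These UMI shares depend on how well each transcript is captured, so they are compared between classes and not read as a ratio of proteins.

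**Figure D2:**
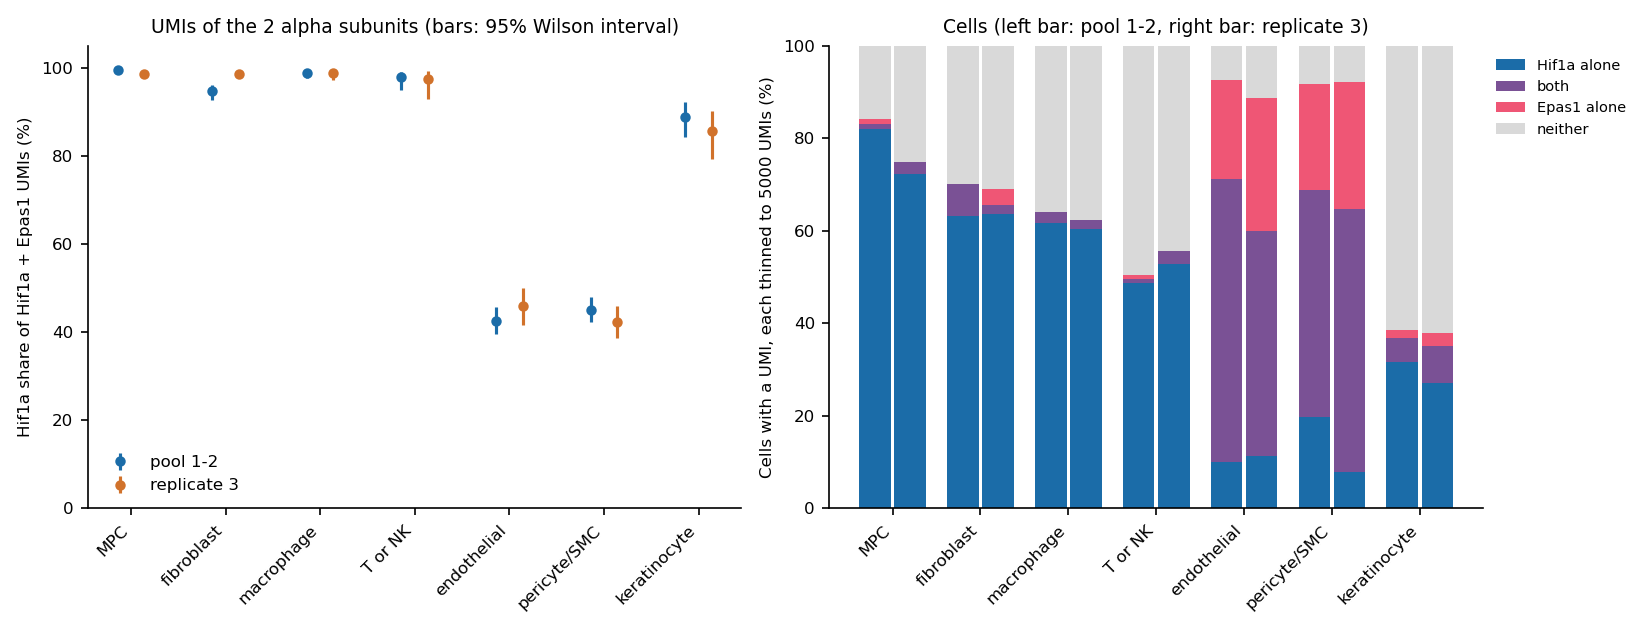
Left, share of Hif1a among the UMIs of Hif1a and Epas1 (percent, with Wilson 95% intervals) by class and library. Right, share of cells with a UMI of Hif1a alone, of Epas1 alone, of each or of neither after thinning every cell to 5000 UMIs (left bar of a pair, pool of replicates 1 and 2, and right bar, replicate 3). In endothelial and mural (pericyte/SMC) cells Hif1a made up 42.3% to 45.8% of the UMIs, against 85.6% or more elsewhere.

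Arnt, the constitutive partner that each HIF-α needs, varied less. Its levels ran from 14.9 CPM (28 UMIs) and 16.01 CPM (24 UMIs) in keratinocytes to 40.1 and 46.4 CPM in fibroblasts. Mural cells held 38.4 and 43.8 CPM, macrophages 42.9 and 30.6, MPCs 34.4 and 29.2, T or NK cells 29.8 and 19.3 and endothelial cells 28.4 and 27.6. Fibroblasts were higher by 0.70 (SE 0.17, adjusted p = 0.0037) and keratinocytes were lower (-0.98, SE 0.22, adjusted p = 0.0016). The ranges of fibroblasts, mural cells, macrophages and MPCs overlapped each with the next.

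Among the hydroxylases, Egln3 varied most between classes. Egln3 encodes PHD3, a prolyl hydroxylase known to be induced by HIF. Keratinocytes held 35.0 and 77.4 CPM (66 and 116 UMIs), T or NK cells 21.4 and 16.5 CPM (23 and 6 UMIs) and endothelial cells 8.80 and 3.94 CPM (13 and 3 UMIs). Fibroblasts held 2.14 and 3.15 CPM, mural cells 1.94 and 0, macrophages 0.80 and 1.13 and MPCs 0.75 and 0.25 CPM (7 and 2 UMIs). The keratinocyte values lay above all others, but replicate 3 was more than 2 times the pool, and the single-library differences were 3.67 and 5.62. The fitted difference was 4.55 in keratinocytes (SE 0.33, adjusted p = 2.1e-08) and 2.71 in T or NK cells (SE 0.53, adjusted p = 0.00069). Egln3 passed the filter on low counts through the sums of these classes and the endothelial sum of the pool, so these p-values are not support. Egln3 was lower in MPCs (-3.17, SE 0.61, adjusted p = 0.00050) and in macrophages (-2.25, SE 0.79, adjusted p = 0.031), but these rest on 7 and 2, and 2 and 2, UMIs and were no longer called when cells with little ribosomal RNA were kept (adjusted p = 1.0 in each). In the other 6 classes the 10 keratinocyte markers summed to between 23.6 and 77.3 CPM, against 53706 and 55295 CPM in keratinocytes. They were highest in T or NK cells, at 77.3 and 77.0 CPM.

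Within keratinocytes, Egln3 was not confined to one layer. Suprabasal cells (more Krt1 and Krt10 than Krt5, Krt14 and Krt15 UMIs) held 35.4 and 86.9 CPM and basal cells 34.1 and 47.3 CPM. The intervals of the layers overlapped in each library (25.9 to 47.2 and 20.8 to 52.7 in the pool, and 70.6 to 106 and 27.6 to 75.7 in replicate 3). After thinning to 5000 UMIs, 17.5% and 29.7% of keratinocytes had an Egln3 UMI, against 0 of 194 and 0 of 159 MPCs. Before thinning these shares were 42.7% and 52.6% of keratinocytes, and 2.78% and 1.17% of MPCs. Of T or NK cells, those with a Trdc UMI, a γδ T cell receptor gene, held 7.58 and 12.2 CPM of Egln3 (2 UMIs in each library) and the others 25.9 and 20.1 CPM (21 and 4 UMIs), counts too low for an order.

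Egln1 encodes PHD2, the main oxygen-dependent brake on HIF-1α. It was also highest in keratinocytes, at 124 and 168 CPM. Endothelial cells held 95.5 and 64.3 CPM, MPCs 84.0 and 65.0, T or NK cells 80.1 and 66.0, fibroblasts 68.4 and 61.7, mural cells 75.3 and 48.1 and macrophages 41.7 and 39.1. Keratinocytes lay above and macrophages below all other tested classes, and the classes between them overlapped. Schwann-like cells, which were not tested, were above keratinocytes in the pool and below them in replicate 3. The difference was 1.35 in keratinocytes (SE 0.15, adjusted p = 3.4e-06) and -0.90 in macrophages (SE 0.19, adjusted p = 0.0011). Suprabasal keratinocytes held 118 and 168 CPM and basal ones 138 and 170.

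Egln2 encodes PHD1, a prolyl hydroxylase that is not known as a HIF target. By the mean of both libraries it was highest in macrophages, at 53.3 and 45.9 CPM, and lowest in keratinocytes, at 19.6 and 18.7 CPM. MPCs held 33.2 and 34.9 CPM, fibroblasts 40.6 and 39.7, T or NK cells 28.9 and 19.3, endothelial cells 55.5 and 23.6 and mural cells 34.0 and 27.0. Macrophages were higher by 0.77 (SE 0.18, adjusted p = 0.0031) and keratinocytes lower (-0.76, SE 0.24, adjusted p = 0.017), the latter no longer called when cells with little ribosomal RNA were kept (adjusted p = 0.12). In macrophages Egln2 was thus higher and Egln1 lower.

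Hif1an encodes the asparaginyl hydroxylase FIH. T or NK cells held 28.9 and 27.5 CPM, above keratinocytes at 15.4 and 18.7, and all other classes lay between 7.77 and 14.4 CPM. The difference in T or NK cells was 1.22 (SE 0.28, adjusted p = 0.0023), where the median of all genes was -0.24. No other class was called for Hif1an. Vhl, the substrate receptor of the ligase that takes up hydroxylated HIF-α, was at 23.6 and 18.7 CPM in macrophages, 22.4 and 19.3 in T or NK cells, 15.2 and 15.7 in MPCs, 12.3 and 14.4 in fibroblasts, 12.6 and 9.27 in mural cells, 11.5 and 9.19 in endothelial cells and 4.24 and 2.67 in keratinocytes. Macrophages were higher by 1.03 (SE 0.21, adjusted p = 0.00081) and T or NK cells by 0.87 (SE 0.29, adjusted p = 0.025), and keratinocytes were lower (-1.91, SE 0.33, adjusted p = 0.00022). The MPC difference of 0.50 (SE 0.18, adjusted p = 0.029) was lost under 6 of the alternatives tried, with adjusted p from 0.056 to 0.33, among them the fit without the MPCs of 3 or more cartilage markers (adjusted p = 0.11). The T or NK call for Vhl was lost under 3, with adjusted p from 0.064 to 0.16.

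**Figure D3:**
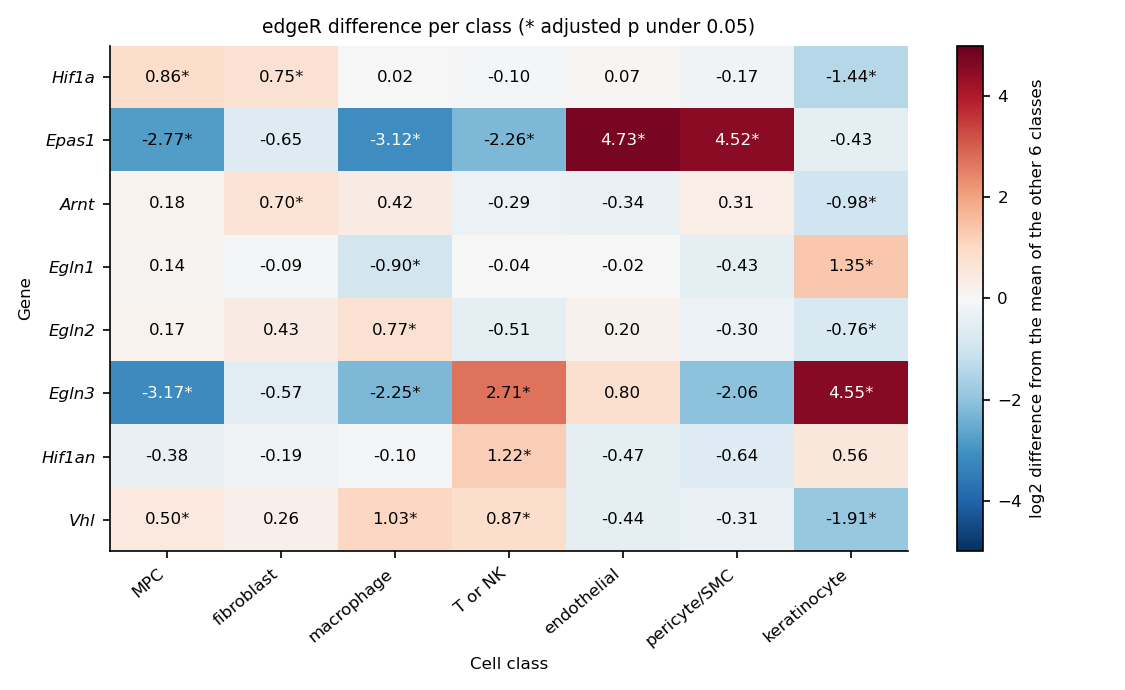
Differences of 8 members (rows) in 7 cell classes (columns) as log2 difference from the mean of the other 6 classes, from edgeR on 2 libraries, with an asterisk for an adjusted p under 0.05. Keratinocytes were called for 6 members, with Egln1 and Egln3 higher and Hif1a, Arnt, Egln2 and Vhl lower.

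Keratinocytes were set directly against fibroblasts, and 6 of 8 members were called, beside 50.5% of all genes. Egln3 was higher by 4.39 (SE 0.52, adjusted p = 4.8e-06) and Egln1 by 1.24 (SE 0.22, adjusted p = 0.00021). Hif1a fell by 1.88, Vhl by 1.86, Arnt by 1.44 and Egln2 by 1.01, with adjusted p from 1.9e-06 to 0.0074. Keratinocytes and fibroblasts did not differ past the threshold in Epas1 (0.19, SE 0.45) or in Hif1an (0.65, SE 0.32).

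Macrophages were set directly against T or NK cells, and 4 of 8 members were called, beside 37.3% of all genes. Egln2 was higher in macrophages by 1.09 (SE 0.32, adjusted p = 0.014). Egln1 was lower (-0.74, SE 0.27, adjusted p = 0.040), as were Egln3 (-4.26, SE 0.81, adjusted p = 0.00075, with -4.33 and -3.51 in each library alone) and Hif1an (-1.13, SE 0.34, adjusted p = 0.016). Hif1a (0.10, SE 0.20) and Vhl (0.14, SE 0.31) did not pass the test between these immune classes. The Egln1 call was lost without the filter on low counts (adjusted p = 0.054) and the Hif1an call under a stricter gate (adjusted p = 0.070).

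Neutrophils carry little ribosomal RNA, and the ribosomal filter of the study left 13 and 4 of them. Without that filter, 45 and 21 neutrophil-like barcodes held 196479 and 84942 UMIs. Schwann-like cells (39 and 21) then also entered the fit, and no test of them is given. In the test of neutrophil-like barcodes against the other 8 classes 0 of 8 members were called, beside 23.9% of 12840 genes. At an unadjusted p of 0.05, 3 members passed, and DESeq2 called 1, Vhl, which stood at 70.6 CPM in replicate 3. The median difference of all genes was -1.04 in this test. The count of calls varied with the settings, as given at the end, so 0 calls are not read as no difference. Hif1a stood at 214 and 177 CPM. Egln3 had 5 UMIs in the pool (25.4 CPM, Poisson interval 8.26 to 59.4) and 0 in replicate 3, which allows up to 35.3 CPM (3 counts). Neutrophils and T or NK cells were not tested against each other.

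The Visium sections show where the loop is transcribed in wild-type tissue. A spot covers several cells, and fewer cells of a type cannot be told apart from less RNA per cell. The sections held 3555 and 3195 spots, of which 3504 and 3185 had at least 100 UMIs, with medians of 460 and 518 UMIs, given here for A1 and then B1. Spots were gated by tissue markers into wound mesenchyme (23 and 46), epidermis (114 and 166), skeletal muscle (234 and 122), cartilage (134 and 93), bone (39 and 48), tendon (38 and 39), adipose (89 and 65) and inflammatory myeloid regions (33 and 144), and 2800 and 2461 spots met no gate. At this depth 5 of the 9 members passed the filter on low counts among 2848 genes. Hif1a did so only through the myeloid sums. Epas1, Hif3a, Vhl and Hif1an were not tested, with 57, 10, 47 and 33 UMIs over the 16 sums.

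Of the 5 tested members, 2 were called in epidermis (22.7% of all genes) and 2 in inflammatory myeloid regions (28.4%). In cartilage 1 was called (3.41%) and in adipose tissue 1 (3.79%). None was called in wound mesenchyme (6.32%), skeletal muscle (4.78%), bone (5.06%) or tendon (2.49%) by edgeR, and in these 4 tissues none passed an unadjusted p of 0.05 or was called by DESeq2.

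Egln3 was the member with the clearest place in the sections. Epidermis held 815 and 364 CPM (145 and 91 UMIs) and myeloid regions 583 and 442 CPM (15 and 63 UMIs). Tendon held 245 and 132 CPM, skeletal muscle 184 and 125, wound mesenchyme 137 and 84.4, bone 83.9 and 93.4, adipose tissue 72.0 and 63.3 and cartilage 60.0 and 95.8. Epidermis and myeloid regions lay above every other tissue in each section. The difference from the mean of the other 7 tissues was 2.10 in epidermis (SE 0.23, adjusted p = 3.9e-11) and 2.82 in myeloid regions (SE 0.30, adjusted p = 1.4e-12). Egln3 passed the filter on low counts through 7 of the 16 sums, among them every epidermis and myeloid sum. Its p-values after that filter therefore do not count as support. The scaling factors of the myeloid sums were 0.79 and 0.56, against 0.96 to 1.16 elsewhere, and without a scaling factor the differences were 2.05 in epidermis and 2.09 in myeloid regions (adjusted p = 4.6e-11 and 1.4e-08), so the order of these tissues is not given. Cartilage was lower (-1.37, SE 0.41, adjusted p = 0.045), as was adipose tissue (-1.61, SE 0.46, adjusted p = 0.028), and both of these calls were lost with DESeq2, without the filter on low counts, without the section as a block and without a scaling factor. The cartilage difference was -1.77 in A1 alone and -0.76 in B1 alone.

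Egln3 UMIs were found in 49 of 114 and 51 of 166 epidermis spots (43.0% and 30.7%), with up to 10 and 8 UMIs in a spot. In myeloid regions 10 of 33 and 48 of 144 spots had an Egln3 UMI, and among spots of no gate 7.68% and 6.58% did. Of the myeloid spots, 4 in A1 and 0 in B1 also passed the epidermis gate. Without those spots Egln3 was at 490 CPM (11 UMIs) in A1 and at 442 CPM in B1. The 10 epidermis markers summed to 11650 and 4632 CPM in myeloid spots, against 55699 and 55560 CPM in epidermis, and the part of epidermal RNA in the myeloid Egln3 level was not tested.

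**Figure D4:**
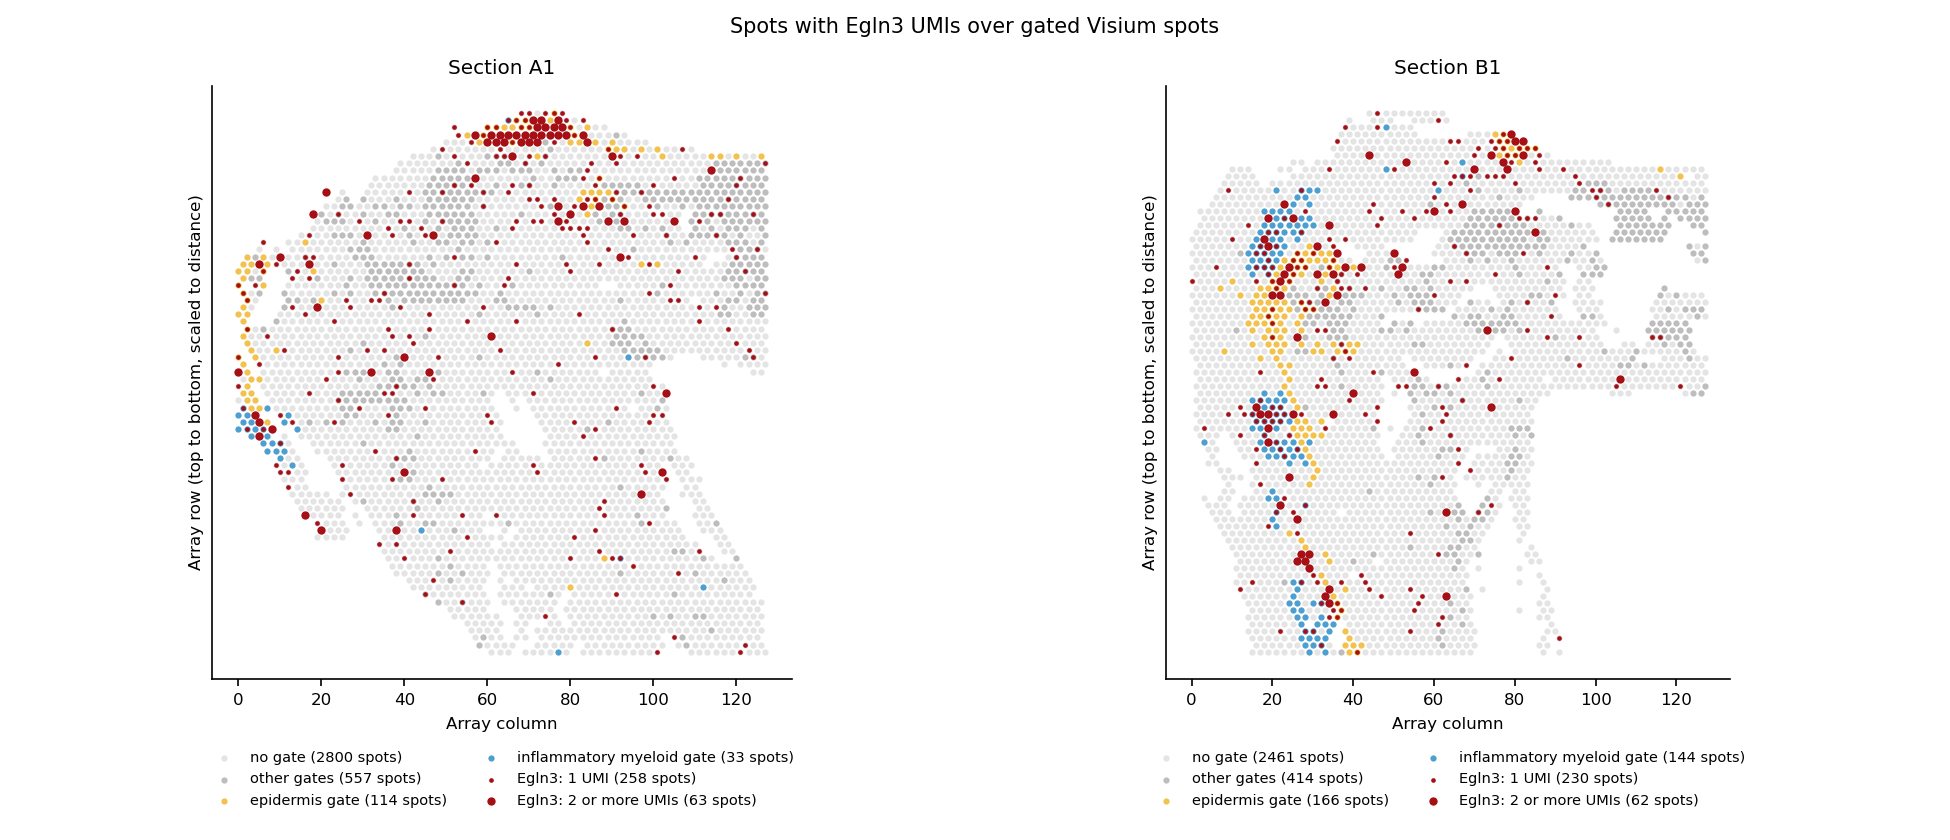
Positions of Visium spots in sections A1 and B1 by array row and column, coloured by tissue gate, with dark red points for spots with 1 Egln3 UMI (small) or 2 or more (large). Of 3504 and 3185 spots, 321 and 292 had an Egln3 UMI, and of the 63 and 62 spots with 2 or more, 31 and 29 lay in epidermis or myeloid regions.

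The Moran's I scores deposited with the sections, which rise when neighbouring spots have like values, put Egln3 at rank 80 of 19132 genes in A1 (0.0983) and at rank 193 of 19222 in B1 (0.0893). Hif1a stood at ranks 688 and 2503 and Egln1 at 3548 and 858. Epas1 was at 18192 and 16858, with scores just below 0. A score of this kind is low when a gene has few UMIs per spot, and most members had too few for it to be read.

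Hif1a was higher in myeloid regions, at 272 and 260 CPM (7 and 37 UMIs), than in every other tissue, where it ran from 0 to 112 CPM. The difference was 2.66 (SE 0.39), and 1.90 without a scaling factor. Since Hif1a passed the filter on low counts through these myeloid sums alone, its p after that filter is not given as support, and the fit without the filter gave 1.84 (adjusted p = 0.00037). Egln1 was at 247 and 248 CPM in epidermis, a difference of 0.95 (SE 0.28, adjusted p = 0.0078) that was lost with DESeq2 (adjusted p = 0.098). In myeloid regions Egln1 was at 194 CPM (5 UMIs) in A1 and 21.1 CPM (3 UMIs) in B1, so the sections did not agree. Arnt was at 419 and 70.0 CPM in bone, where the sections also fell apart, and no tissue was called for Arnt or Egln2.

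**Figure D5:**
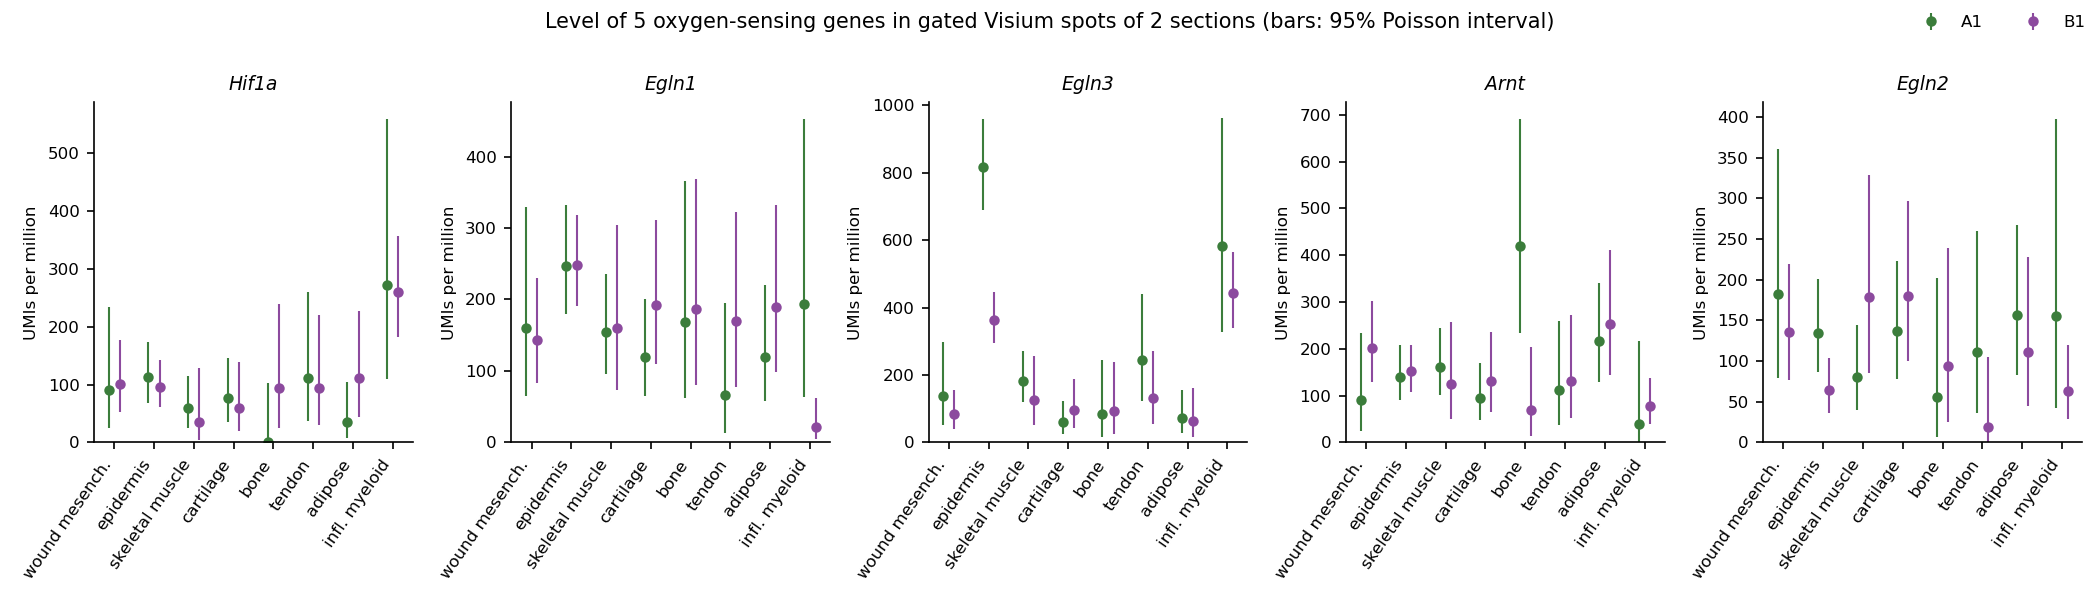
Level of the 5 members tested in spots (CPM, vertical axes) in 8 gated tissues (horizontal axes) of sections A1 (green) and B1 (purple), with exact 95% Poisson intervals. The Egln3 levels were highest in epidermis and myeloid regions, and the Hif1a levels, from 7 and 37 UMIs, in myeloid regions.

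Egln3 and Egln1 were therefore highest in keratinocytes among the tested cell classes. In the sections, Egln3 levels were highest in epidermis and myeloid regions, where its p-values do not count as support. Egln1 was called in epidermis by edgeR and not by DESeq2. The cells and the sections came from different mice and different assays. The genotypes, the libraries and the probes differ between them, so the levels are set side by side and not compared. Macrophage-like cells held 0.80 and 1.13 CPM of Egln3 and neutrophil-like barcodes 25.4 and 0 CPM. Myeloid regions of the sections, gated with neutrophil and monocyte genes such as S100a8 and Il1b, held 583 and 442 CPM. Hif1a in macrophage-like cells differed by 0.02 from the mean of the other classes.

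The other genes of the pathway were read from 5 lists, which were chosen with earlier results of these data known. Of 29 tested genes of the hypoxia response, 15 were higher and 4 lower in MPCs, with a median difference of 0.49 against 0.10 for all genes (3991 higher and 1868 lower of 12726). Plod2, a collagen lysyl hydroxylase, stood at 569 and 429 CPM (5.73, SE 0.13, adjusted p = 4.9e-14) and P4ha2, a collagen prolyl hydroxylase subunit, at 111 and 107 CPM (4.53, SE 0.22, adjusted p = 6.4e-10). Fibroblasts had 11 higher and 7 lower, and a median of 0.05 as over all genes, with Plod2 at 234 and 183 CPM. Macrophages had 10 higher and 7 lower (median 0.14 against -0.08), led by the small GTPase gene Rab20 at 171 and 154 CPM (4.18, SE 0.15, adjusted p = 3.3e-12). Keratinocytes had 10 higher and 7 lower (median 0.19 against -0.08), with the glycolytic aldolase gene Aldoc at 10.1 and 13.3 CPM (4.80, SE 0.58, adjusted p = 1.4e-05, with 3.66 and 4.45 in each library alone) and Plod2 at 1.59 and 0.67 CPM. T or NK cells had 10 higher and 12 lower (median -0.56 against -0.24), endothelial cells 6 and 9 (-0.01 against 0.01) and mural cells 9 and 7 (-0.15 against 0.02). Of all 12726 genes, 42.7%, 29.5% and 32.6% were called in these 3 classes. In fibroblasts, macrophages and keratinocytes the shares of all genes called were 36.7%, 43.9% and 45.5%.

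Of 10 endothelial genes linked to HIF-2, all 10 were higher in endothelial cells, beside 29.5% of all genes called there. But Cdh5 was itself a gate marker and the list is of endothelial genes, so the count of the list cannot be set apart from the cell type. In mural cells, which shared the high Epas1 level, 2 were higher and 1 lower, near the 32.6% of all genes called there. Flt1, a VEGF receptor gene, stood there at 149 and 169 CPM (6.82, SE 0.24, adjusted p = 1.6e-10, with 6.23 and 6.10 in each library alone). Cdh5, the endothelial cadherin gene, was at 984 and 1178 CPM in endothelial cells and at 0 in mural cells. Between endothelial and mural cells 9 of the 10 were higher in endothelial cells, beside 29.2% of all genes called. Epas1 did not pass the test in this pair, and its part in the levels of these genes was not tested.

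Of 11 tested subunits and neddylation factors of the VHL ligase, 4 were higher and 1 lower in MPCs, near the 46.0% of all genes called there. Ube2m, which passes NEDD8 to cullins, was higher by 0.64 (SE 0.09, adjusted p = 4.7e-05) and Elob, elongin B, by 0.57 (SE 0.10, adjusted p = 0.00018). Fibroblasts had 0 of 11 called by edgeR, with 0 at an unadjusted p of 0.05 and 1 by DESeq2, beside 36.7% of all genes. Keratinocytes, where Vhl was lowest of the tested classes, had 2 higher and 1 lower, beside 45.5% of all genes. Usp20, a deubiquitinase that acts against VHL on HIF-1α, was higher there by 2.10 (SE 0.35, adjusted p = 0.00013, with 1.51 and 2.76 in each library alone), at 12.2 and 21.3 CPM.

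Of 24 cofactors and other regulators of HIF-α, 3 were higher and 9 lower in MPCs, 8 and 5 in macrophages and 7 and 2 in T or NK cells. Of all genes 46.0%, 43.9% and 42.7% were called in those classes, and the medians of the list were -0.10, 0.18 and 0.35 against 0.10, -0.08 and -0.24 over all genes. Macrophages were led by Wsb1, a ligase subunit gene (1.28, SE 0.11, adjusted p = 1.9e-07), and by Cited2, a transcriptional regulator that competes with HIF-1α for p300 (1.21, SE 0.11, adjusted p = 2.7e-07). Arnt2, a paralogue of Arnt, was at 15.8 and 57.8 CPM in T or NK cells and at 1.82 and 2.55 CPM in MPCs. Nfkb1, a transcriptional activator of Hif1a, was at 575 and 557 CPM in fibroblasts (1.45, SE 0.13, adjusted p = 2.5e-07). Of 15 tested genes that supply 2-oxoglutarate, iron or ascorbate to hydroxylases or take up their product, 11 were higher and 1 lower in macrophages, where 3327 were higher and 2265 lower of all 12726 genes, with a median of 0.51 against -0.08. They included the iron carriers Slc11a2 (1.58, SE 0.21, adjusted p = 1.5e-05) and Tfrc (1.46, SE 0.20, adjusted p = 1.8e-05). In T or NK cells 2 were higher and 4 lower (median -0.27 against -0.24), with Idh1 at 3.73 and 8.25 CPM and Idh2 at 9.31 and 2.75 CPM. In endothelial cells 0 were higher and 6 lower, beside 2445 higher and 1304 lower of all 12726 genes, with a median of -0.41 against 0.01.

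In the sections, 13 genes of the hypoxia response could be tested. In myeloid regions 8 were higher and 0 lower, with a median difference of 1.28 against -0.08 for all genes, of which 586 were higher and 224 lower of 2848. The myeloid scaling factors of 0.79 and 0.56 raise every difference there. The 8 genes were led by Rab20 at 311 and 274 CPM (6.79, SE 0.74, adjusted p = 9.2e-12, with 5.85 and 5.50 in each section alone) and by the HIF target Ankrd37 at 155 and 351 CPM (4.28, SE 0.49, adjusted p = 4.5e-11, with 3.09 and 4.39 alone). In epidermis 5 were higher, beside 398 higher and 249 lower of all genes, with a median of 0.26 against 0.00. Slc2a1, the glucose transporter gene, stood there at 1974 and 2315 CPM (1.85, SE 0.17, adjusted p = 1.3e-13). In wound mesenchyme 0 were higher and Vegfa was lower (-1.84, SE 0.41, adjusted p = 0.0015), and in tendon Plod2 was higher (1.86, SE 0.47, adjusted p = 0.018, with 1.14 and 2.54 in each section alone), at 134 and 377 CPM. Of all genes, 6.32% and 2.49% were called in wound mesenchyme and tendon.

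Across the 14 class sums, the genes whose levels ran most like each member were named from 6332 or 6333 genes with a mean of at least 20 CPM, as a description. Hif1a ran most like Fam3c, Tram2 and Tmf1 (Pearson's r of log2 levels 0.95, 0.95 and 0.94). Epas1 ran most like the vascular genes Adgrf5, Esam and Gja4 (0.97, 0.96 and 0.95). Egln3 ran most like the ribosomal protein genes Rpl22, Rps6 and Rpl30, of which Rpl22 reached 0.95. The sums share libraries, and the share of ribosomal UMIs differed between classes, with medians of 25.7% in keratinocytes and 13.3% in MPCs of the pool. Vhl ran most like Ap3s1 (0.97), Egln1 like Eif3i (0.94), Hif1an like Capn7 (0.94), Arnt like Glg1 (0.92) and Egln2 like Pvr (0.89). Between members, Hif1a and Egln3 had an r of -0.71 and Hif1a and Epas1 one of 0.00.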

How the data were processed

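The deposited matrices hold unnormalised UMI counts, made by the authors with Cell Ranger 5.0.1 for cells and Space Ranger 2.0.1 for spots (mm10). Moran's I is a deposited score per gene and section. The p-value columns deposited beside it were not used. No per-sample column lay outside these samples (0).

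The members and lists were chosen with earlier results of these data known. Barcodes under 200 genes, over 20% mitochondrial or under 5% ribosomal UMIs, or above the 99th percentile of UMIs or genes were removed. A cell entered a class with at least 3 of its markers detected and 2 more than of any other class, and a spot entered a tissue when its marker UMIs (at least 3) were above those of the whole section by a Poisson tail under 0.001, among spots of 100 UMIs or more. These gate limits were set after the files were seen. No doublet caller was run, and the gate margin alone removes mixed cells. UMIs were summed over each class or tissue that reached 20 members in both samples. edgeR 4.0.16 (R 4.3.3, TMM factors, filterByExpr, quasi-likelihood) was fitted to the sums blocking on library or section, since the same library or section, and so the same mice, gives every class. Each class was set against the equal-weight mean of the others, with p-values adjusted over all genes and a threshold of 0.05. The code was tested on simulated data. Poisson and Wilson 95% intervals, and the floor of 3 counts, cover counting error only. Thinned shares used 5000 UMIs per cell, leaving out shallower cells.

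Genes were named by a rule: the 9 members, per list and comparison at most 2 genes with the largest called change of the same direction in both samples, and per member the 3 genes most like it. Alternatives were DESeq2 1.42.0, RLE factors, no filter on low counts, no replicate block, a stricter gate or tail, other filters on cells and spots, each sample alone and, added after the data were seen, no scaling factor and MPCs without cells that had 3 or more cartilage markers. Sequences came from RefSeq. Figures were drawn with matplotlib 3.10.9.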

Additional observations from a re-analysis of the deposited data

How the results depend on the processing

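With 2 libraries and 2 sections, precision is limited by the number of samples, and differences of Egln3 outside keratinocytes and T or NK cells rest on few UMIs. The 23 calls across classes came to between 20 and 24 under every alternative, and no called difference changed sign. The 11 calls between pairs of classes came to 11 or 12. Without the MPCs of 3 or more cartilage markers they were 23 and 11. The 6 calls in tissues came to 3 with DESeq2, 4 without the filter on low counts, 5 with spots of at least 300 UMIs, 5 without a scaling factor and 6 with RLE factors. A Poisson tail under 1e-05 left wound mesenchyme, bone and tendon with under 20 spots and gave no value there. The 0 calls in neutrophil-like barcodes became 1 with DESeq2, with RLE factors, without the replicate block, under the stricter gate and without a scaling factor, and 2 without the filter on low counts. The cause was not tested. Without the replicate block the counts were 23, 11, 1 and 4 for classes, pairs, neutrophil-like barcodes and tissues. Each library or section alone gives a direction and no test, since no residual degrees of freedom remain. The called differences kept their direction in 23 and 23 of 23 (classes), 11 and 11 of 11 (pairs) and 6 and 6 of 6 (tissues). The same samples made these calls, so the like directions are a description and not support. Without a scaling factor Egln1 in myeloid regions was called lower (-1.52, adjusted p = 0.015).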

Other observations

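Some cell classes were too small to be tested and are given as levels (pool, then replicate 3). Dendritic-like cells (16 and 7) held 74.7 and 34.6 CPM of Vhl (26 and 4 UMIs), above the 2.67 to 23.6 CPM of the tested classes, and 60.4 and 69.2 CPM of Hif1a, below their 91.4 CPM or more. Mast-like cells (8 and 14) held 519 and 317 CPM of Hif1a (13 and 28 UMIs). Schwann-like cells (29 and 19) held 141 and 114 CPM of Egln1 (37 and 21 UMIs) and 49.5 and 76.2 CPM of Hif1a. Skeletal-muscle-like cells (21 and 17) had 1 and 0 UMIs of Hif1a, with 10 and 2 UMIs of Egln1. The 277 and 175 cells that met no gate held 414 and 348 CPM of Hif1a, 19.2 and 19.9 CPM of Epas1 and 2.03 and 3.01 CPM of Egln3, levels within the range of the mesenchymal and vascular classes. In spots that met no gate, Egln3 was at 153 and 128 CPM and Epas1 at 61.0 and 26.0 CPM (A1, then B1).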
